A study of Mus musculus with 4 samples.

Results

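Chaperones and folding factors of the endoplasmic reticulum (ER) were followed through single-cell RNA sequencing of hearts of young mice whose mothers had eaten a diet high in fibre or a control diet. The set held 10 of the 31053 genes in the deposited matrices: Hspa5, Sdf2l1, Dnajb11, Dnajb9, Hsp90b1, Pdia4, Calr, Herpud1, Manf and Creld2. They were taken by gene symbol. Sdf2l1, Creld2 and Manf were chosen by their levels, which differed by maternal diet in the fibroblasts of these same libraries, and the other 7 genes because they belong to the same stress programme. The comparison by diet in fibroblasts is therefore given as a description with no test.

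The offspring were 6 weeks old and had all eaten standard chow since weaning at 3 weeks. The groups were offspring of high-fibre dams (high_fibre, 2 libraries) and offspring of control-diet dams (control_diet, 2 libraries). The diet was eaten by the mother and not by the animals that were sampled, and the labels name no mutation or other treatment. Whether a library is 1 animal or a pool, and whether libraries come from separate animals, is not stated, so every p-value rests on library-to-library spread that may be only technical. RNA of both sexes was found in every library, as given below. Hearts were digested, and live, metabolically active, nucleated cells were sorted before droplet capture, so the cells describe what survived digestion and sorting.

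Proteins that are secreted or set in membranes are folded in the ER by chaperones, which need calcium, ATP and oxidising conditions. When unfolded protein builds up, the sensors IRE1, PERK and ATF6 raise the transcription of chaperones through XBP1, ATF4 and cleaved ATF6, which is called the unfolded protein response. Cardiac fibroblasts secrete collagen and other matrix proteins and carry a large folding load. Hspa5 encodes BiP, the main Hsp70 chaperone of the ER. Its partners here are Dnajb11 and Dnajb9, which are J-domain co-chaperones, and Sdf2l1, which works with Dnajb11 on BiP clients. Hsp90b1 encodes GRP94, the Hsp90 of the ER. Pdia4 is a disulfide isomerase, and Calr encodes calreticulin, a calcium-binding lectin that holds glycoproteins until they fold. Herpud1 is a membrane protein of the pathway that sends misfolded proteins to the proteasome. Manf and Creld2 are small stress-induced proteins that can be secreted.

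Promoter sequences show which members carry the classical ER stress elements, and were read from the RefSeq table for GRCm38.p6, which holds 250 bases before to 50 bases after each gene's start. It matched 9 of the 10 genes, the exception being Manf. The ER stress response element (ERSE: CCAAT, 9 bases of any kind, then CCACG, on either strand) was found in Hspa5, Calr, Hsp90b1 and Creld2, which is 4 of 9, and in 0.119% of the 32851 promoters of the same length in the table. Its first base lay 65 bases before the start in Hspa5, 162 in Calr, 126 in Creld2, and 212 and 107 in Hsp90b1. The related ERSE-II (ATTGG, 1 base of any kind, then CCACG, on either strand) was found in Herpud1, 52 bases before the start, and in Dnajb11, where it begins at base 8 after the start. It stood in 0.0365% of all promoters. These shares are a description with no test, since the elements are classical ones of ER stress genes. The 2 matches of Hsp90b1 do not overlap, and starts are those of the RefSeq table. Neither Sdf2l1, Pdia4 nor Dnajb9 held an exact match in this window, and that says only that those letters are not there. The lines below give 60 bases around the match nearest the start, 30 bases for Dnajb11, and the 120 bases before the start of Sdf2l1 for contrast. All run 5′ to 3′ on the strand of the gene, and capitals mark the fixed letters of the element.
Hspa5: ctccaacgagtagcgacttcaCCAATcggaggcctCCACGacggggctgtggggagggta
Hsp90b1: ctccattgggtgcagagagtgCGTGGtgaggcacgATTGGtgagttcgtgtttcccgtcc
Calr: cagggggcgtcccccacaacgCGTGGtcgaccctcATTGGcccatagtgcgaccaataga
Creld2: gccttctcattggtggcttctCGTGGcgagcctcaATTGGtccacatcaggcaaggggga
Herpud1: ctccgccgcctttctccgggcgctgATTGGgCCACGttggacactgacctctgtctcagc
Dnajb11: cccggcggcgATTGGcCCACGcctggctgc
Sdf2l1: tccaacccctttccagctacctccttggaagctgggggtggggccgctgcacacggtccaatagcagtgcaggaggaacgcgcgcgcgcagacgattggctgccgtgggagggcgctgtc

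These stretches lie at chr2:34772004-34772063 (Hspa5, plus strand), chr10:86705513-86705572 (Hsp90b1, minus strand), chr8:84847055-84847114 (Calr, minus strand), chr15:88819499-88819558 (Creld2, plus strand), chr8:94386352-94386411 (Herpud1, plus strand), chr16:22857842-22857871 (Dnajb11, plus strand) and chr16:17132384-17132503 (Sdf2l1, minus strand). The further elements searched were TGACGTGG and TGACGTGA (bound by ATF6 or XBP1) and TGATGNAAN and TTGCATCA (bound by ATF4 with C/EBP), on both strands. TGACGTGA was found in Hspa5, and in 0.441% of all promoters. Herpud1 held TGATGNAAN, present in 3.95% of promoters, and TTGCATCA, present in 0.895%. These ATF4 matches overlap each other. The genes without a printed stretch are Pdia4 on chromosome 6 (47796141 to 47813430, minus strand), Dnajb9 on chromosome 12 (44205559 to 44210326, minus strand) and Manf on chromosome 9 (106838312 to 106891979, minus strand) of GRCm38. Manf overlaps Rbm15b on its own strand and Dcaf1 on the other, so part of its count is uncertain. Herpud1 and Dnajb11 overlap antisense genes on the other strand, Gm15890 and Gm30505.

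The 4 libraries held 26765 barcodes and 27577599 to 69600492 UMIs (molecules counted by their tags) each, and 23944 barcodes passed the filters. Cells were placed in gates by UMIs of marker genes that are not members of the set. The gates held 6949 fibroblasts (Col1a1 and Dcn), 6819 endothelial cells (Pecam1 and Cdh5), 3469 macrophages (C1qa), 900 pericytes (Kcnj8 and Vtn), 909 B cells (Cd79a) and 329 T cells (Cd3e). Other markers of each type stood where the gate says: 6 further fibroblast genes summed to 43937 to 47522 CPM (UMIs per 1000000 UMIs of the gate) in the fibroblast gate, and 6 pericyte genes to 17843 to 18713 in the pericyte gate and at most 143 in fibroblasts. Mitochondrial shares were alike, with library medians of 4.58% to 4.79%. Libraries also shared barcodes: 884 barcodes were held by 2 or more. Control_diet 2 shared 737 of its barcodes (24.8%) with high_fibre 1, 747 (25.2%) with high_fibre 2 and 463 (15.6%) with control_diet 1, and in 643, 648 and 400 of those it held at least 5 times the UMIs. A low copy is a barcode for which another library held at least 5 times the UMIs. Such copies held 0.235% to 0.952% of a library's kept UMIs. Among gated fibroblasts 173 of 1961, 212 of 2403, 111 of 1981 and 17 of 604 cells were low copies in high_fibre 1 and 2 and control_diet 1 and 2, and 420 of the 604 in control_diet 2 were shared in all. The pericyte gate held at most 2 shared cells in a library.

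**Figure D1:**
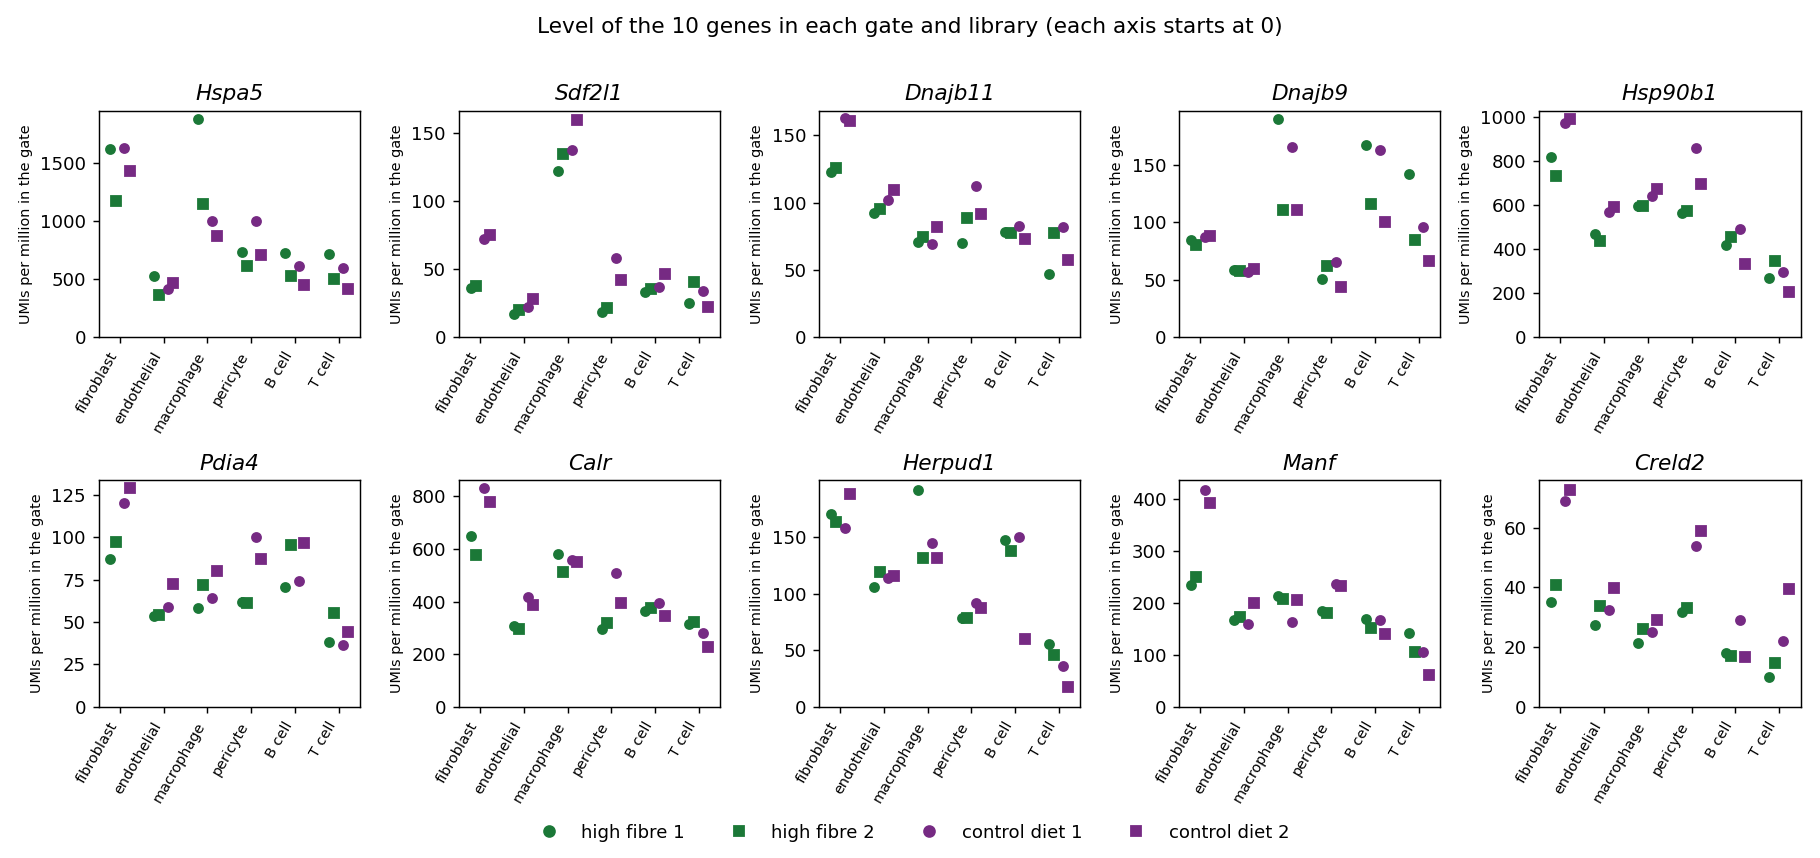
Level of each gene (vertical axis, UMIs per 1000000 UMIs of the gate (CPM), linear and starting at 0) in the 6 gates (horizontal axis), 1 point per library, green for high_fibre and purple for control_diet, circles for library 1 and squares for library 2. Sdf2l1 is highest in macrophages at 123 to 159, and in fibroblasts its control_diet points (71.8 and 75.1) stand apart from its high_fibre points (36.1 and 37.7).

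In fibroblasts the whole set leaned towards lower levels in offspring of high-fibre dams. All 10 genes had a fitted log2 fold below 0, and in 8 of the 10 the groups were apart, each high_fibre library being lower than each control_diet library. Of the 13615 genes tested in this gate, 17.2% were apart in that direction. The median log2 fold of the 10 genes was −0.37, against 0.0060 over all genes tested in the gate. These values chose members of the set, so the count carries no test and nothing is read from it. Levels here and in the comparisons by diet are UMIs per 1000000 UMIs of the gate in a library (CPM), and folds are log2 of high_fibre over control_diet as fitted by edgeR.

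The 3 genes that were chosen on this contrast come first. Sdf2l1 stood at 36.1 and 37.7 CPM in high_fibre 1 and 2 and at 71.8 and 75.1 CPM in control_diet 1 and 2, a log2 fold of −0.98 (SE 0.0863). The groups did not overlap, and the libraries of a group lay close together, with means of 36.9 ± 1.18 against 73.4 ± 2.3 CPM (SD, n = 2 each). Creld2 stood at 35.2 and 40.8 CPM against 69.0 and 72.7 CPM, a log2 fold of −0.88. Manf stood at 234 and 249.5 CPM against 419 and 393 CPM, a log2 fold of −0.73. In both genes each control_diet library was above each high_fibre library. Behind these values stood at least 698 UMIs per library for Creld2, 721 for Sdf2l1 and 3771 for Manf, so counting error is small beside the gap.

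Next come the folding enzymes and co-chaperones. Pdia4 measured 86.9 and 97 CPM in high_fibre and 120 and 129 CPM in control_diet (log2 fold −0.42). Calr measured 650 and 577 CPM against 831 and 780 CPM (−0.38), and Dnajb11 measured 122 and 126 CPM against 163 and 161 CPM (−0.37). Hsp90b1 measured 819 and 733 CPM against 973 and 989 CPM (−0.32). In each of these 4 genes both control_diet libraries were the higher ones.

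BiP itself overlapped between the groups. Hspa5 measured 1619 and 1166 CPM in high_fibre and 1624 and 1425 CPM in control_diet, a log2 fold of −0.11 (SE 0.182), and the groups overlapped, with high_fibre 1 above control_diet 2. Herpud1 measured 170 and 163 CPM against 158 and 188 CPM, also overlapping (log2 fold −0.04). Dnajb9 measured 84.4 and 80.2 CPM against 86.8 and 87.8 CPM, apart but by little (log2 fold −0.07). Without high_fibre 2 the log2 fold of Hspa5 was 0.11 and that of Herpud1 0.01, and without control_diet 2 that of Herpud1 was 0.09. Sdf2l1 held a log2 fold between −1.01 and −0.95, Creld2 between −0.98 and −0.80 and Manf between −0.79 and −0.68 over the main and 14 other settings, which include leaving out each library. Without low copies the log2 folds of Sdf2l1, Creld2 and Manf were −0.99, −0.89 and −0.74, and without all shared barcodes they were −0.96, −0.82 and −0.68.

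Depth and markers of other cells moved with the groups as well. The median fibroblast held 11576 and 12264 UMIs in high_fibre and 13006 and 16146.5 in control_diet. Summed macrophage markers (6 genes, none at 0 in all libraries) stood at 21.1 and 36.7 CPM in high_fibre fibroblasts and at 14.6 and 16.1 CPM in control_diet fibroblasts, summed erythroid markers (5 genes) at 38.4 and 178 against 8.19 and 15.8 CPM, and summed B cell markers (6 genes) at 14.4 and 16.3 against 6.83 and 4.27 CPM. The part of these in the result was not tested. The early stress genes that rise during tissue digestion (10 genes, such as Fos and Jun) overlapped between groups as a sum, at 12655 and 10659 against 10688 and 10751 CPM. Yet all 10 had a log2 fold above 0, as did 51.7% of all genes tested in the gate. Their part in the result was not tested either. Xist, which is transcribed in female cells, overlapped too, at 330 and 605 against 736 and 486 CPM, as did Ddx3y, a gene of the Y chromosome, at 78.1 and 38.5 against 33.6 and 43.3 CPM. Both genes were counted in every library, so each held RNA of both sexes, in shares that varied. Cells were not sorted by sex here.

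Cells were also described at the same depth. Each fibroblast was thinned to 2000 UMIs, which left out 591 shallower cells of the 6949 (213, 237, 122 and 19 in high_fibre 1 and 2 and control_diet 1 and 2). Expected mean UMIs of Sdf2l1 per thinned cell were then 0.0683 and 0.0752 in high_fibre and 0.138 and 0.149 in control_diet, a ratio of 0.501. Such means are CPM with equal weight for each cell, and CPM is already divided by depth. They are therefore no separate check of the gap, whose ratio in CPM was 0.502. The same ratio was 0.542 for Creld2, 0.592 for Manf, 0.757 for Calr and 0.903 for Hspa5.

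The share of fibroblasts with at least 1 UMI followed the level. For Sdf2l1 it was 7.89% (exact binomial 95% interval 6.67 to 9.26%) and 6.93% (5.89 to 8.08%) in high_fibre 1 and 2. In control_diet 1 and 2 it was 12.2% (10.8 to 13.8%) and 12.1% (9.6 to 15.1%). Thinned cells with a UMI of Sdf2l1 held 1.04 to 1.18 on average, so no change per positive cell can be read for this gene. At full depth the shares were 27.8% and 29.7% against 45.8% and 53.1%. For Manf the thinned share was 35.9% and 35.3% in high_fibre and 48.5% and 48.4% in control_diet. Thinned cells with a UMI of Manf held 1.32 and 1.34 UMIs on average in high_fibre and 1.60 and 1.69 in control_diet, so both the share of cells and the count per positive cell were lower in high_fibre. Intervals cover counting error only, cells of a library are not replicates of a diet, and no gate lacks these genes, so no background share could be set beside them.

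**Figure D2:**
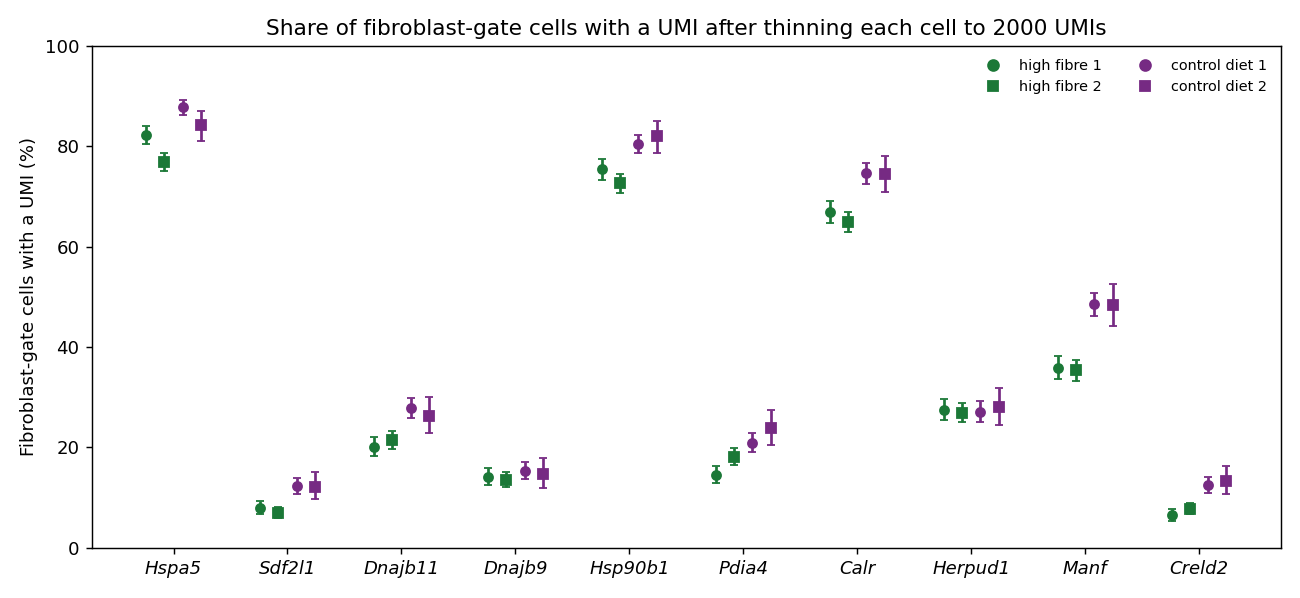
Share of fibroblast-gate cells with at least 1 UMI of each gene (vertical axis, percent) after every cell was thinned to 2000 UMIs, 1 point per library with its exact binomial 95% interval. Manf stands at 35.9% and 35.3% in the high_fibre libraries and at 48.5% and 48.4% in the control_diet libraries, while the 4 points of Herpud1 lie between 26.9% and 28.0%.

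Pericytes wrap the capillaries and were gated on other markers. Their cells did not choose the set, but they come from the same 4 libraries as the fibroblasts that did, so the test is not independent of that choice, and the same holds for the other gates. Sdf2l1 measured 18.1 and 21.5 CPM in high_fibre 1 and 2 and 58.0 and 41.9 CPM in control_diet 1 and 2. Both high_fibre libraries were below both control_diet libraries. The log2 fold was −1.33 (SE 0.286, adjusted p = 0.0149, edgeR), which made Sdf2l1 the one member called among the 50 tests of members in the 5 gates other than fibroblasts. In this gate 0.111% of the 8981 genes tested were called, 0.0334% as lower in high_fibre. The values rest on few molecules: 20 and 28 UMIs against 58 and 27.

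The call depended on settings and on single libraries. Without high_fibre 1 the adjusted p was 0.471 and without control_diet 1 it was 0.546, where the lone library of a group is taken to vary like the other group. DESeq2 gave an adjusted p of 1.00, the stricter gate 0.0516 and a mitochondrial limit of 10% 0.0548. Among the 115, 132, 76 and 62 pericytes with no UMI of any other gate's marker the log2 fold was −2.09 (adjusted p = 0.0087), and without all shared barcodes it was −1.35 (adjusted p = 0.0111).

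The rest of the set did not pass the threshold in pericytes. In 9 of the 10 genes the log2 fold was below 0, the exception being Dnajb9 (0.04), and 8 of the 10 were apart with high_fibre lower, against 17% of all genes tested. The median log2 fold of the 10 was −0.39, against 0.0017 over all genes tested. Before adjustment 7 of the 10 had a p under 0.05, as did 5.41% of all genes tested. Creld2 measured 31.7 and 33 CPM against 54.0 and 59.0 CPM (log2 fold −0.77, adjusted p = 0.511). Pdia4 measured 61.5 and 61.3 CPM against 99.97 and 87.0 CPM (−0.59, adjusted p = 0.534). Calr measured 295 and 317 CPM against 510 and 393 CPM (−0.54, adjusted p = 0.163), and Hsp90b1 563 and 570 CPM against 857 and 694 CPM (−0.43, adjusted p = 0.379). In these 4 genes each control_diet library was above each high_fibre library. Without control_diet 2 the adjusted p was 0.0063 for Calr and 0.0433 for Hsp90b1, and with the replicate block it was 0.0277 for Calr. With that block 32 genes were called in this gate, against 10 in the main setting. Hspa5, at 732 and 611 CPM against 1000 and 704 CPM, overlapped as it did in fibroblasts.

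Fibroblast RNA in the pericyte gate was measured beside this. The 6 further fibroblast markers summed to 6179 and 6440 CPM in high_fibre and 5878 and 5686 CPM in control_diet. Most of that was Mgp (4356 to 4964 CPM). Pdgfra, which defines cardiac fibroblasts, was at 0, 4.6, 0 and 3.11 CPM in high_fibre 1 and 2 and control_diet 1 and 2, against 398 to 457 CPM in the fibroblast gate. The gate's own exclusion markers went in opposite directions. Col1a1 stood at 53.4 and 56.7 CPM in high_fibre against 121 and 93.2 CPM in control_diet (log2 fold −0.96). Dcn stood at 120 and 154 against 106 and 60.6 CPM (log2 fold 0.69). A barcode with a UMI of both genes was left out of the pericyte gate. The gate rule therefore shaped these values, and no test is read from them. Col1a1 and Dcn were looked up after the results had been seen. Summed endothelial markers (6 genes) stood at 2906 and 2717 CPM in high_fibre pericytes against 2325 and 2244 CPM in control_diet pericytes. Of the 5 tested, 2 had a log2 fold above 0 and 3 below. Summed macrophage markers stood at 52.5 and 72.8 CPM in high_fibre pericytes against 28.0 and 38.8 CPM in control_diet pericytes. Erythroid markers stood at 101.4 and 69.8 against 13 and 37.3 CPM, and B cell markers at 94.1 and 33.7 against 26.0 and 10.9 CPM. Stress genes summed to 3240 and 2570 CPM in high_fibre pericytes and 2359 and 2081 CPM in control_diet pericytes. In 9 of these 10 genes the log2 fold was above 0, as in 50.4% of all genes tested in the gate. Ddx3y was apart in pericytes, at 84.2 and 59.8 CPM in high_fibre against 48.0 and 41.9 CPM in control_diet (log2 fold 0.67, adjusted p = 0.661, edgeR), and Xist overlapped at 296 and 721 against 899 and 727 CPM. The part of these in the result was not tested.

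Endothelial cells, which line the vessels, had mostly negative folds and no call. In 9 of the 10 genes the log2 fold was below 0, 5 of the 10 were apart with high_fibre lower (17% of all genes tested were), and none was called, against 0.274% of the 12415 genes tested, 0.0483% as lower. Before adjustment 4 of the 10 had a p under 0.05, as did 6.19% of all genes tested. Calr measured 306 and 296 CPM in high_fibre and 416 and 387 CPM in control_diet (log2 fold −0.41, adjusted p = 0.143, edgeR). Hsp90b1 measured 466 and 437 CPM against 567 and 591 CPM (−0.36, adjusted p = 0.240). Sdf2l1 measured 16.9 and 19.8 CPM against 21.8 and 28.0 CPM (−0.43, adjusted p = 0.519). In these 3 genes the groups were apart. With no filter on low counts Calr had an adjusted p of 0.0038 and Hsp90b1 of 0.0229 (edgeR). Under that setting 254 genes were called in this gate, against 34 in the main setting. Manf, one of the leading genes in fibroblasts, overlapped here at 168 and 173 CPM against 160 and 200 CPM (−0.07). Markers of other cells moved with the groups in this gate: erythroid sums stood at 6769 and 2062 CPM in high_fibre and 1177 and 1446 CPM in control_diet, macrophage sums at 48.2 and 74.9 against 26.7 and 27.9 CPM, and B cell sums at 29.0 and 32.8 against 11.6 and 7.42 CPM. Their part in the result was not tested.

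In macrophages the direction was mixed. Sdf2l1 measured 123 and 135 CPM in high_fibre and 137 and 159 CPM in control_diet, apart but by a log2 fold of −0.20 (adjusted p = 1.00, edgeR). Hspa5 went the other way, at 1872 and 1143 CPM against 1001 and 870 CPM (log2 fold 0.71, SE 0.328, adjusted p = 1.00), with high_fibre 1 far above the other libraries. Without high_fibre 2 it had a log2 fold of 1.07 and an adjusted p of 0.0048. No member was called in this gate by edgeR, none had an unadjusted p under 0.05 (4.09% of all genes had), and 0% of the 11485 genes tested were called. By diet 3 of the 10 were apart with high_fibre lower (17.3% of all genes) and 1 with high_fibre higher (15.8%). The median log2 fold of the 10 genes was −0.03.

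Lymphocytes showed no lean towards lower levels. In B cells 3 of the 10 genes had a log2 fold below 0, and the median was 0.05. In T cells 2 of the 10 did, and the median was 0.26. None was called by edgeR in either gate, against 0.0423% of genes called in B cells (0.0141% as lower) and 0.0727% in T cells (0.0182% as lower). None had an unadjusted p under 0.05, against 3.46% of genes in B cells and 4.16% in T cells. In B cells 1 of the 10 was apart with high_fibre lower (14.9% of all genes), and in T cells 1 was lower (16%) and 3 were higher (16.1%). Of those 3, Manf is a tie to the printed digits. Manf in T cells measured 142 and 105.2 CPM in high_fibre against 105.2 and 61.5 CPM in control_diet. Creld2 in T cells measured 10.0 and 14.8 CPM against 22.1 and 39.5 CPM (log2 fold −1.14, adjusted p = 1.00), from 6, 8, 17 and 9 UMIs. The T cell gate held 31 to 104 cells per library, so these values are coarse. Markers of other cells were uneven between libraries in the B cell gate. Summed plasma cell markers (6 genes) stood at 398 and 422 CPM in high_fibre and 1295 and 336 CPM in control_diet. Summed neutrophil markers (4 genes) stood at 478 and 250 against 501 and 1884 CPM. Their part in the result was not tested.

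**Figure D3:**
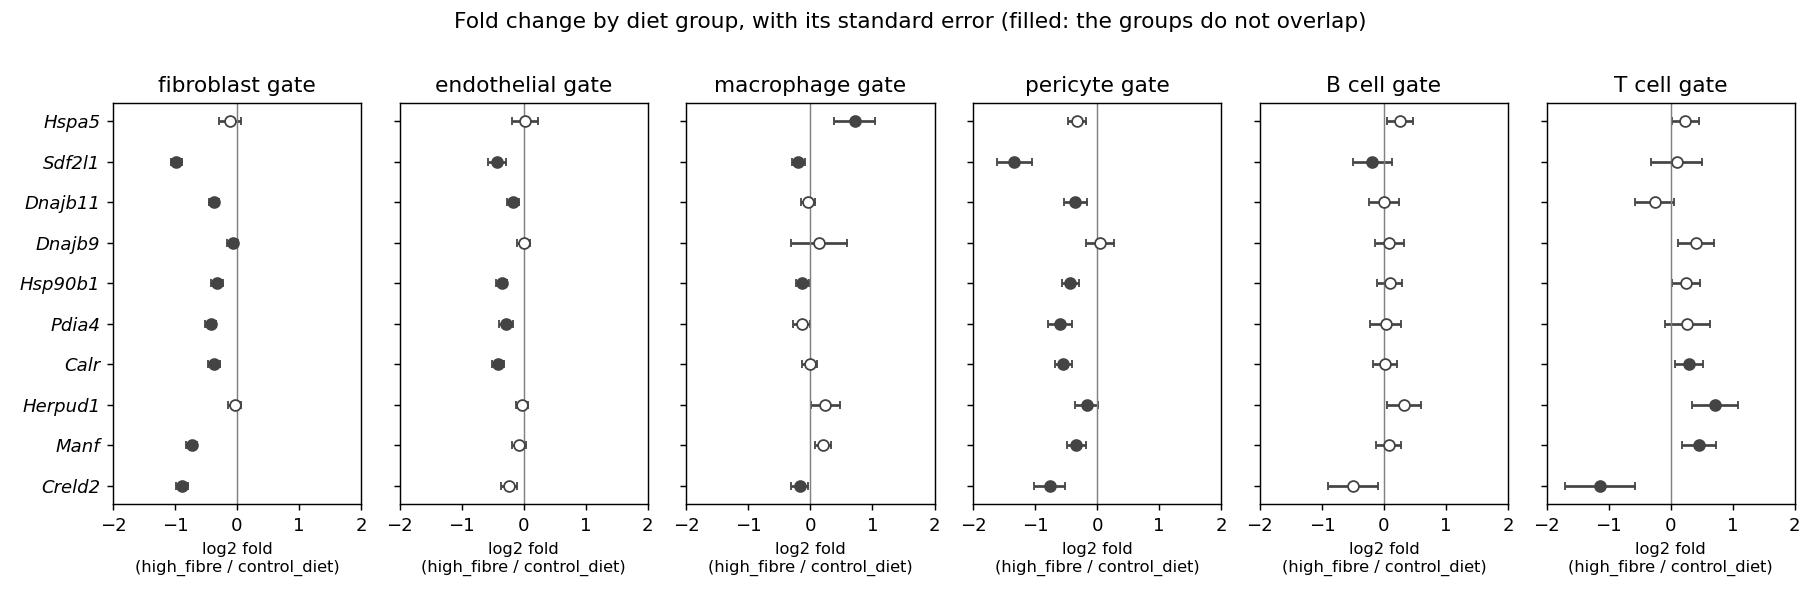
Log2 fold of high_fibre over control_diet (horizontal axis) for each gene (vertical axis) in the 6 gates, as a point with its standard error, filled where both libraries of one group lie beyond both of the other. The points of Sdf2l1 run from −0.98 in fibroblasts and −1.33 in pericytes to −0.43 in endothelial cells and −0.20 in macrophages.

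Whether the effect of diet differed between cell types was tested directly for the 6 pairs of the endothelial, macrophage, pericyte and B cell gates. The difference of the log2 fold within libraries was fitted by limma, and none of the 60 tests of members passed the threshold (lowest adjusted p = 0.781). At an unadjusted p under 0.05 there were 8 of the 60, against 5.27% of all gene tests in the 6 pairs together. At the adjusted threshold 0% of all genes were called in any of the 6 pairs. The log2 fold of Sdf2l1 in macrophages exceeded that in pericytes by 1.02 (SE 0.305, adjusted p = 0.857). That of Hspa5 did so by 0.96 (SE 0.263, adjusted p = 0.857). Without control_diet 1 the lowest adjusted p was 0.100. The gates' folds are not shown to differ. Pairs with the fibroblast gate were not tested because fibroblasts chose the members.

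Each gene also had its own order of cell types. For this comparison levels are CPM scaled between gates with edgeR's TMM factors (scaled CPM), because the gates differ in composition, and all 150 tests of 10 genes over 15 pairs of gates came from 1 fit with the library as a block. The threshold was passed in 91 of the 150. Fibroblasts were above endothelial cells in 10 of 10 genes, against 38% of all 12780 genes tested. They were above pericytes in 10 of 10 (29.2% of all genes) and above T cells in 8 of 10 (39.1%). Against B cells they were higher in 7 of 10 (41.9%) and lower in Dnajb9, with 72% of all genes called in either direction. Against macrophages they were higher in 4 of 10 (40.6%) and lower in Sdf2l1 and Dnajb9, with 77.7% of all genes called in either direction. Macrophages were above pericytes in 9 of 10 genes (33.5%, with 67.7% called in either direction), above T cells in 8 of 10 (31.4%) and above endothelial cells in 8 of 10 (35.6%, with 73.5% called in either direction). Between endothelial cells and pericytes 3 of 10 genes were called (2 of them higher in endothelial cells), against 56.4% of all genes. For every member the highest mean was in fibroblasts or macrophages.

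Sdf2l1 was set apart by its level in macrophages. Its scaled CPM there was 167 ± 13.5 (SD, n = 4 libraries, lowest 155, highest 185), and 53.6 ± 20.4 in fibroblasts, where the SD holds the difference between diets (35.6 to 72.7). The log2 fold of macrophages over fibroblasts was 1.72 (SE 0.133, adjusted p = 5.35e-10, edgeR). B cells (39.0 ± 3.39), T cells (33.9 ± 9.94), pericytes (27.3 ± 14.5) and endothelial cells (20.7 ± 4.53) followed, and no neighbours among fibroblasts and these gates differed beyond their spread.

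Dnajb9, the co-chaperone that holds the sensor IRE1 in check, was likewise highest in macrophages at 176 ± 54.9 scaled CPM. There high_fibre 1 and 2 stood at 240 and 131 and control_diet 1 and 2 at 203 and 129. B cells at 143 ± 42.6 and T cells at 109 ± 38.0 came next, then fibroblasts at 82.5 ± 3.43. The step from fibroblasts to endothelial cells (55.5 ± 1.69) was the one between neighbours that passed (log2 fold 0.57, adjusted p = 0.00072, edgeR), and pericytes were lowest at 43.5 ± 7.91. Herpud1 had macrophages (182 ± 41.4) and fibroblasts (165 ± 12.95) at the top, not separable (adjusted p = 0.348), and T cells at the bottom with 43.5 ± 18.7.

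The general chaperones shared a pattern of fibroblasts and macrophages at the top. Hspa5 stood at 1486 ± 601 scaled CPM in macrophages and 1421 ± 220 in fibroblasts (adjusted p = 0.895, edgeR), then fell to 620 ± 154 in T cells, a step that passed (log2 fold of fibroblasts over T cells 1.20, adjusted p = 7.52e-06). Endothelial cells were lowest at 422 ± 70.7. Calr stood at 690 ± 112 in fibroblasts and 665 ± 56.1 in macrophages (adjusted p = 0.752), with the next gate, B cells, at 383 ± 38.4 (log2 fold of macrophages over B cells 0.78, adjusted p = 5.28e-06). Hsp90b1 stood at 855 ± 119 in fibroblasts and 754 ± 37.8 in macrophages (adjusted p = 0.211), and T cells were lowest at 311 ± 70.2.

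The remaining members had their highest mean in fibroblasts. Creld2 measured 52.9 ± 18.4 scaled CPM in fibroblasts and 34.8 ± 10.7 in pericytes, a step that passed (adjusted p = 0.0025, edgeR), while pericytes, endothelial cells (31.8 ± 4.77) and macrophages (30.5 ± 2.76) could not be ordered. Manf measured 315 ± 91.5 in fibroblasts, 239 ± 29.0 in macrophages and 167 ± 15.9 in endothelial cells, and both steps passed (adjusted p = 0.0470 and 0.0083). These means pool the diets: Manf in fibroblasts stood at 231 and 241 scaled CPM in high_fibre, below the 269.9 and 245 of their macrophages, and at 407 and 380 in control_diet, above the 199.9 and 239.7 of their macrophages. Dnajb11 measured 139 ± 20.5 in fibroblasts and 95.3 ± 7.87 in endothelial cells (adjusted p = 5.99e-08). Pdia4 measured 105.3 ± 18.5 in fibroblasts and 86.8 ± 10.8 in B cells, a step just inside the threshold (adjusted p = 0.04995).

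The scaling matters for pericytes. TMM factors were 1.26 to 1.29 in pericytes and 0.794 to 0.864 in macrophages. Without them 109 of 150 tests passed, and 81 of the 91 calls kept their direction and their side of the threshold. The direction turned in 5, of which 1 passed the threshold: Pdia4, Hsp90b1, Manf and Dnajb11 between macrophages and pericytes, and Calr between pericytes and B cells. Under both scalings macrophages had the highest mean of Sdf2l1 and Dnajb9, and fibroblasts that of Creld2, Manf, Hsp90b1, Pdia4, Dnajb11 and Calr, while Hspa5 and Herpud1 had fibroblasts first without the factors. A highest mean is not a passed test: Calr and Hsp90b1 did not differ beyond their spread between fibroblasts and macrophages, and scaled Calr was higher in macrophages (733 and 603) than in fibroblasts (643 and 557) in both high_fibre libraries.

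Over the 24 sums of 6 gates and 4 libraries, the members did not form 1 block. The points share libraries and depth, so the correlations are descriptions. Sdf2l1 correlated with Calr at r = 0.81 and with Hspa5 at r = 0.73, but with Creld2 at only r = 0.18. The genes most like Sdf2l1 among 12780 were Vmp1, Slc29a3, Ftl1, Tbc1d31 and Gnpda1 (r = 0.91 to 0.89). Those most like Creld2 were Zfpl1, Kiz, Romo1, Tmem107 and Map3k10 (r = 0.87 to 0.83). Manf was closest to another member, Hsp90b1 (r = 0.91), then to Dtnbp1, Adam19, Pdia6 and Rnh1 (r = 0.90 to 0.87). Pdia6 is a disulfide isomerase that works with BiP.

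The other genes of ER proteostasis in fibroblasts are set beside all genes of the gate, of which 48.3% had a log2 fold below 0, 17.2% were apart with high_fibre lower and 6.58% had an unadjusted p under 0.05. Of 24 other ER folding genes 18 were below 0 (median −0.13), 16 were apart with high_fibre lower and 8 had an unadjusted p under 0.05. Of 18 genes of ER-associated degradation 13 were below 0 (median −0.10), 7 were apart and 3 had an unadjusted p under 0.05. Of 26 genes of translocation and the early secretory path 23 were below 0 (median −0.10), 14 were apart and 4 had an unadjusted p under 0.05. None of these was called by edgeR, against 0.0147% of genes in this gate. The genes behind that share are Creld2 and Sdf2l1, which were chosen on this contrast. It is therefore no independent reference, and nothing is read from the lack of calls. Serpinh1, the collagen chaperone HSP47, measured 1193 and 1039 CPM in high_fibre and 1418 and 1344 CPM in control_diet. Of 10 sensors and factors 8 were below 0 (median −0.08), 3 were apart and 1 had an unadjusted p under 0.05. Xbp1, the transcription factor activated by IRE1, measured 225 and 226 CPM against 256 and 290 CPM. In both genes the groups were apart. The lowest fold in these lists was that of Derl3 (−1.55), a degradation factor, which was noted after its values were seen and rests on 9, 6, 18 and 12 UMIs.

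The arm of the response run by PERK and ATF4 was split in fibroblasts. Of its 19 genes tested, out of 21 listed, 10 had a log2 fold below 0 and 9 above (median −0.08, none called by edgeR, 6 at an unadjusted p under 0.05). Nupr1, a stress-induced nuclear protein, measured 288 and 309 CPM in high_fibre against 336 and 361 CPM in control_diet, and Cebpb, a C/EBP transcription factor, 311 and 295 against 253 and 271 CPM. Cebpb was called in endothelial cells, where it measured 51.7 and 44.4 CPM against 30.3 and 26.0 CPM (log2 fold 0.76, SE 0.129, adjusted p = 0.0303, edgeR). Summed macrophage markers in that gate moved with it, at 48.2 and 74.9 CPM against 26.7 and 27.9 CPM, and their part was not tested.

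The comparison list was the cytosolic heat shock genes. All 12 tested genes had a log2 fold above 0 in fibroblasts (median 0.52), endothelial cells (0.57), macrophages (0.78) and pericytes (0.69), as did all 11 tested in B cells (1.19) and T cells (1.38), where 49.5% to 51.7% of all genes tested in a gate were above 0. Hspa1b, an inducible Hsp70, measured 1123 and 832 CPM in high_fibre pericytes and 532 and 598 CPM in control_diet pericytes (log2 fold 0.82, adjusted p = 7.62e-04, edgeR). It was also called in B cells (1.82, adjusted p = 6.02e-04) and T cells (1.87, adjusted p = 7.34e-05). In fibroblasts it measured 834 and 477 CPM against 330 and 300 CPM. Dnaja1, an Hsp40 co-chaperone, was called in B cells (1.19, adjusted p = 0.0383). Hspa1b has a near-identical neighbour, Hspa1a, so its own count is uncertain. These calls, with Cebpb, were 5 in the 5 gates other than fibroblasts, all higher in high_fibre.

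**Figure D4:**
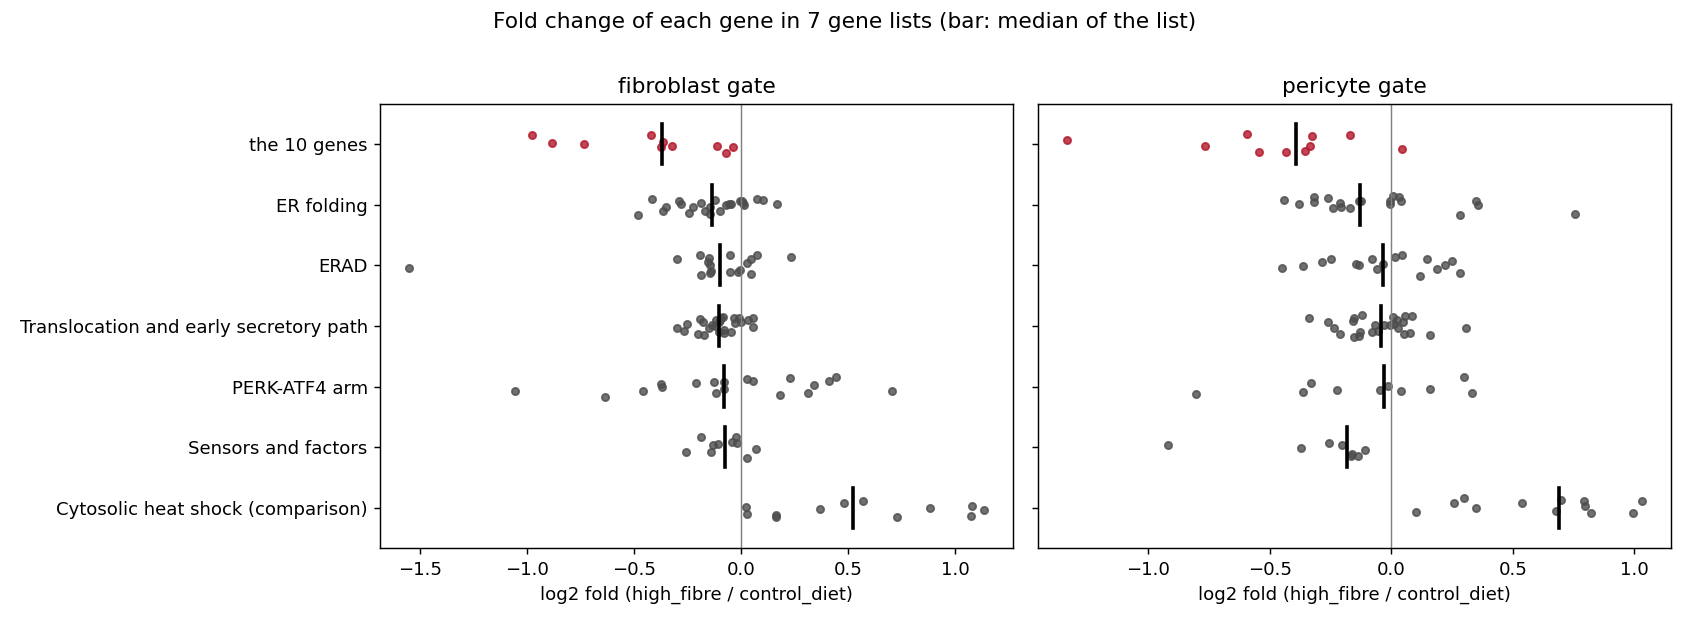
Log2 fold of high_fibre over control_diet (horizontal axis) of each tested gene of 7 lists (vertical axis; jitter within a list has no meaning) in the fibroblast and pericyte gates, with a bar at each list's median. The medians of the 10 ER genes are −0.37 and −0.39, of which the fibroblast value follows in part from how genes were chosen, and every point of the cytosolic heat shock list lies above 0.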

How the data were processed

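Per the submitters' processing notes, reads were processed with Cell Ranger 3.1.0 on mm10. The authors deposited whole-number UMI counts per gene and barcode for 4 libraries, and no cell annotation was used here. Barcodes were kept with at least 500 UMIs, 250 genes and at most 20% mitochondrial UMIs. A cell entered a gate with at least 1 UMI of each of 2 markers, or at least 2 UMIs of a single marker, and was left out if it met several gates (3.18% to 6.76% of kept barcodes). Doublets were otherwise kept and their removal was an alternative. Counts were summed per library and gate, so that the library was the replicate.

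The main test was edgeR 4.0.16 by quasi-likelihood (R 4.3.3, robust, TMM, filterByExpr minimum count 10), with Benjamini-Hochberg adjustment over all genes of a gate or pair and a threshold of 0.05. Diet effects between gates were compared with limma 3.58.1 (prior count 2). DESeq2 1.42.0 was an alternative. An exact permutation test of 2 against 2 libraries cannot go below p = 0.333, so none is given. On simulated counts, 65% to 88% of 2-fold changes were called, depending on the gate, and 100% of 4-fold changes. A gate also had 3 to 11 calls of unchanged genes. The simulated spread between libraries was fixed and not estimated from these data. Changes were planted only in genes with more UMIs than some members had in the small gates. These shares are therefore not the power of the tests above. Cells of a gate were thinned to 2000 UMIs with seed 20, and the mean UMIs are the expected values under thinning.

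Leaving out low copies or all shared barcodes, and leaving out the scaling between gates, were alternatives chosen after seeing the data. The members, the gene lists and the tests were chosen with earlier results of these data known. Figures by gate show all 10 members. In fibroblasts the text gives diet values for all of them, and in the other gates for some only. From the other lists the text names up to 4 called genes with the largest fold in a gate other than fibroblasts, or the 2 with the highest level in a gate, and for likeness the 5 most correlated genes. No pairing by repeat number was assumed, because the source of a shared number is not given. Gene positions come from GENCODE M21 (GRCm38), and protein ends were not analysed here. Counts are of 3′ tags and levels were not compared between genes.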

Additional observations from a re-analysis of the deposited data

Results flagged for a closer look

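In 3 genes the groups were apart one way in T cells and the opposite way in another gate. For Manf this rests on a tie, since high_fibre 2 and control_diet 1 both stood at 105.2 CPM in T cells. The difference was not tested in any of these cases, and the T cell gate held as few as 31 cells in a library. For Manf the log2 fold in fibroblasts minus that in T cells was −1.19, and the fold in pericytes minus that in T cells was −0.79. For Herpud1 the fold in pericytes minus that in T cells was −0.88. For Calr the fold in fibroblasts, endothelial cells and pericytes minus that in T cells was −0.67, −0.71 and −0.84.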

How the results depend on the processing

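With 2 libraries a group and few molecules per gene in the small gates, single calls moved. Calls over all genes moved as well. With no filter on low counts they rose from 34 to 254 in endothelial cells and from 0 to 58 in macrophages. In pericytes they rose from 10 to 21, and to 32 with the replicate block. Member calls are to be read beside these. The count of members called outside fibroblasts was 1, and became 3 with no filter on low counts and 2 with the replicate block. It was 0 with DESeq2, 0 under the stricter gate and 0 at a mitochondrial limit of 10%. Leaving out each library in turn gave 0 to 3. The count of other list genes called outside fibroblasts was 5, and became 19 with no filter and 32 with the replicate block, and 3 to 39 without each library (3 without high_fibre 1, 39 without high_fibre 2). Whether same-numbered libraries share a source cannot be decided here. Their deviations correlated at 0.0078 to 0.200 over genes, above 0 in every gate, and only 2 pairs exist. Stress genes in macrophages summed to 21540 and 20366 CPM in the libraries numbered 1 and to 14338 and 15409 CPM in those numbered 2. Libraries numbered 1 were also the higher ones in endothelial cells (5275 and 5705 against 4282 and 3773 CPM), B cells and T cells. Pericytes were not so ordered, and in fibroblasts control_diet 1 and 2 stood close together, at 10688 and 10751 CPM. Dnajb9 was ordered by number too, at 190 and 166 against 111 and 111 CPM in macrophages. In B cells it stood at 168 and 163 against 116 and 99.9 CPM. Sdf2l1 and Hspa5 in macrophages were not so ordered. The part of this in the diet comparisons was not tested. The 91 calls between gates became 60 among cells with no marker UMI of another gate, where the T cell gate was not run because control_diet 2 held 15 such cells, leaving 100 tests. The other settings gave 85 to 109. Over the endothelial, macrophage and pericyte gates 388 of 420 alternative values kept direction and side of the threshold, and 21 changed sign. These were, for Hspa5 in endothelial cells, −0.0095 with the replicate block and −0.0041 without simulated doublets. For Dnajb9 in endothelial cells they were 0.0353 at a mitochondrial limit of 10%, 0.0045 without simulated doublets and 0.0122 without shared barcodes. For Dnajb11 in macrophages the fold was 0.0179 and for Dnajb9 in pericytes −0.20 among cells with no other marker. Without each library in turn the log2 folds that changed sign ran, in endothelial cells, from −0.222 to 0.0800 (Manf), from −0.312 to 0.286 (Hspa5), from −0.0560 to 0.0476 (Dnajb9) and from −0.0854 to 0.0212 (Herpud1). In macrophages they ran from −0.137 to 0.0561 (Dnajb11), from −0.375 to 0.508 (Dnajb9), from −0.120 to 0.529 (Herpud1) and from −0.160 to 0.131 (Calr), and in pericytes from −0.183 to 0.418 (Dnajb9). The cause was not tested.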
